A study of Mus musculus with 18 samples.

Results

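Proton-pumping respiration depends on protein complexes of the inner mitochondrial membrane, and the mRNAs of their subunits are described here in mouse CD8+ T cells activated with or without asparagine (Asn) in the medium. A gene was taken as a member by its symbol, and its measured value was no part of that rule. The set was chosen with earlier results of these data known. Protein-coding genes named Ndufa, Ndufb, Ndufc, Ndufs or Ndufv with a number stood for complex I (37 genes), Sdha to Sdhd for complex II (4 genes), Uqcr genes for complex III (8 genes), Cox4 to Cox8 genes for complex IV (14 genes) and Atp5 genes for complex V (17 genes). The 13 mRNAs encoded by mitochondrial DNA (symbols starting with mt-) were kept apart. These 93 members were drawn from 18522 genes, and 89 of them passed the filter on low counts and were tested. Ndufa4l2, mt-Atp8, mt-Nd3 and mt-Nd4l did not pass. The name rule is not the biochemistry in every case. NDUFA4 is now counted as a subunit of complex IV, COX7A2L is an assembly factor of supercomplexes, and the complex III subunit CYC1 and the complex I subunit NDUFAB1 carry other names.

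Naive CD8+ T cells came from the lymph nodes and spleen of mice labelled as wild-type male C57BL/6N of 8 to 12 weeks and were activated with plate-bound antibodies to CD3 and CD28. There were 6 groups: Asn restriction and control at 4 h, at 24 h and at 72 h after activation, with 3 RNA-seq libraries each. Asn restriction means RPMI medium made without Asn and with dialyzed serum, and the control medium held the full set of amino acids. The sources do not say whether the 3 libraries of a group came from separate animals or cultures, so the p-values measure only the spread between these libraries, which may be technical. Oxygen consumption and mitochondrial mass were also part of the study, and the question here was how the mRNAs of the respiratory chain differed between the media and over time.

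Complex I (NADH dehydrogenase) and complex II (succinate dehydrogenase) pass electrons to coenzyme Q. Complex III (cytochrome bc1) moves them to cytochrome c, and complex IV (cytochrome c oxidase) moves them to oxygen. Complexes I, III and IV pump protons, and complex V (ATP synthase) uses the gradient to make ATP. Most subunits are encoded in the nucleus, while mitochondrial DNA encodes core subunits of every complex except complex II, so both genomes must be expressed to build the chain. Activated T cells enlarge their mitochondria as they leave quiescence.

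The total gene count per library ran between 11417641 and 21872456. Summed CD8 T cell markers (Cd8a, Cd8b1, Cd3e, Cd3d and Trac, 5 of 5 in the table) lay between 631 and 642 CPM (counts scaled to a common library size) in Asn restriction at 72 h, against 877 to 930 CPM in control, and at 912 CPM or more in all libraries of 4 h and 24 h. Summed myeloid markers were at 58.3 to 60.3 CPM in Asn restriction and 64.6 to 68.2 CPM in control at 72 h, and at 34.0 CPM or less at 4 h and 24 h. Sums over the groups reached at most 7.85 CPM for 4 B cell markers, 12.9 CPM for 3 CD4 and regulatory T cell markers, 9.20 CPM for 3 NK cell markers, 68.2 CPM for 5 myeloid markers and 1.63 CPM for the 2 of 4 erythroid markers in the table, with no marker of the table at 0 in all libraries. The part of other cells in the results was not tested. In such bulk libraries, fewer cells of a type and less RNA per cell cannot be told apart. The library control 72 h replicate 2 stood apart. Mitochondrially encoded genes took 0.438% of its counts, against 0.740% to 0.986% in the other 17 libraries. Over all genes, chi-square over degrees of freedom was 11.49 and 16.25 for its pairs within the group. For other pairs within groups it was at most 6.263. Nuclear-encoded members moved both ways in this library. Cox7b was at 78.5 CPM (115 and 114 in the other control libraries) and Ndufa2 at 184 CPM (128 and 115). Without the library, 38 nuclear-encoded members were higher and 14 lower in Asn restriction at 72 h. Several results that rest on it are given with and without it, and other 72 h values include it.

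Upstream windows of 4 members are printed because they hold motifs of the nuclear factors long tied to respiratory genes, NRF1 and the ETS-family factor GABP (also called NRF-2). The 250 bases before the start site were read from RefSeq (GRCm38.p6), and 66 of the 80 nuclear-encoded members matched, with 71 windows. The letters searched on both strands were GCATGCGC for NRF1, CCGGAAG for ETS factors and AAGATGGC for YY1. GCATGCGC and its reverse complement overlap in the run GCGCATGCGC, which then gives a match on each strand. The NRF1 letters were in 8 of the 71 windows (11.3%), against 2.26% of 32851 windows of all genes and 3.93% of 14611 windows of genes in the table. The ETS letters were in 12 (16.9%), against 6.91% of all windows and 12.4% of those of genes in the table, and the YY1 letters were in 1 (1.41%), against 1.56% and 1.98%. Capitals mark these letters. Uqcr11 and Sdhd were chosen as members with large differences between the media, Ndufa6 for its match and Cox6a1 as the widely expressed counterpart of Cox6a2. Bases that the GENCODE annotation places within the gene were left off, which removes an ETS match of Cox6a1 that starts 16 bases before the start site.
Uqcr11, chr10:80406831-80407071, minus strand: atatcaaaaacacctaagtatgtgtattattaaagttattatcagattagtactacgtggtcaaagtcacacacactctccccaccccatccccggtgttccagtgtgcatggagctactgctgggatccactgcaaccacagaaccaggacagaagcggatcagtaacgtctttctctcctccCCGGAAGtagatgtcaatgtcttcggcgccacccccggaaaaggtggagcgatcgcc
Sdhd, chr9:50603850-50604099, minus strand: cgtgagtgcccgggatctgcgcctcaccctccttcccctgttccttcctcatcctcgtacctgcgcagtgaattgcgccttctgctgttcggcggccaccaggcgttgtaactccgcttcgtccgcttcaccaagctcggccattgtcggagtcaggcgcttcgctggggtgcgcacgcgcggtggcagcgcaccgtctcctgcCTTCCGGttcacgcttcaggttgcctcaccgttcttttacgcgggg
Ndufa6, chr15:82354323-82354541, minus strand: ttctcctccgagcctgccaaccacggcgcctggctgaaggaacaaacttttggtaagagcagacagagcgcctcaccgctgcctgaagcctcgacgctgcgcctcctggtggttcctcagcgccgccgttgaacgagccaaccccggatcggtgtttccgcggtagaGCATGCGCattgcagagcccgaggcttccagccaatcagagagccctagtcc
Cox6a1, chr5:115348982-115349208, minus strand: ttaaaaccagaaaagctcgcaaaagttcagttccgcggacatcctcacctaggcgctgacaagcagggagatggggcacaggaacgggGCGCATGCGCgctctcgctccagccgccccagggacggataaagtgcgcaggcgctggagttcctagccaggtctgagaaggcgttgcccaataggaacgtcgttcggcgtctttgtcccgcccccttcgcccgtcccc

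The direction of the difference between the media turned over with time. At 4 h, 11 of 79 nuclear-encoded members were higher in Asn restriction and 38 were lower, against 23.6% higher and 22% lower of all 14871 genes tested. At 24 h, 1 (Cox6a2) was higher and 60 were lower, against 27.5% and 28% of all genes. By 72 h, 38 were higher and 15 were lower, against 25.4% and 23.8%. These are calls at an adjusted p of 0.05 or less in edgeR's quasi-likelihood test, with Benjamini-Hochberg adjustment over all genes. The median log2 fold change of the 79 members was -0.15 at 4 h, -0.31 at 24 h and 0.16 at 72 h, against 0.02, 0.01 and -0.01 for all genes. A ratio between the media of at least 5 to 4 was reached by 24 of the 38 lower members at 4 h, 38 of the 60 at 24 h and 25 of the 38 higher members at 72 h.

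These counts are relative to the bulk of the RNA in each library. Scaled to the ERCC spike-in RNAs in place of TMM factors, the median of all genes shifted by -0.14 at 4 h, by 0.23 at 24 h and by 0.33 at 72 h (log2). The members called then numbered 2 higher and 22 lower at 4 h, 1 higher and 4 lower at 24 h (the lower ones were Ndufa4, Ndufc2, Cox7a2 and Atp5k) and 40 higher and 2 lower at 72 h (Cox6a2 and Cox6b2). Of all 14871 genes, 942 were then higher and 2122 lower at 4 h, 3790 and 1099 at 24 h, and 4239 and 754 at 72 h. On that scale the median of the nuclear-encoded members at 24 h was -0.08, against 0.25 for all genes, and at 72 h 0.48, against 0.31. Without TMM factors, 4 were higher and 49 lower at 4 h, 4 higher and 46 lower at 24 h, and 29 higher and 24 lower at 72 h. All genes without these factors numbered 2582 higher and 4268 lower at 4 h, 4961 and 3294 at 24 h, and 3045 and 4554 at 72 h. The spike-ins took between 0.829% and 1.72% of counts, and both of these extremes were at 72 h.

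**Figure D1:**
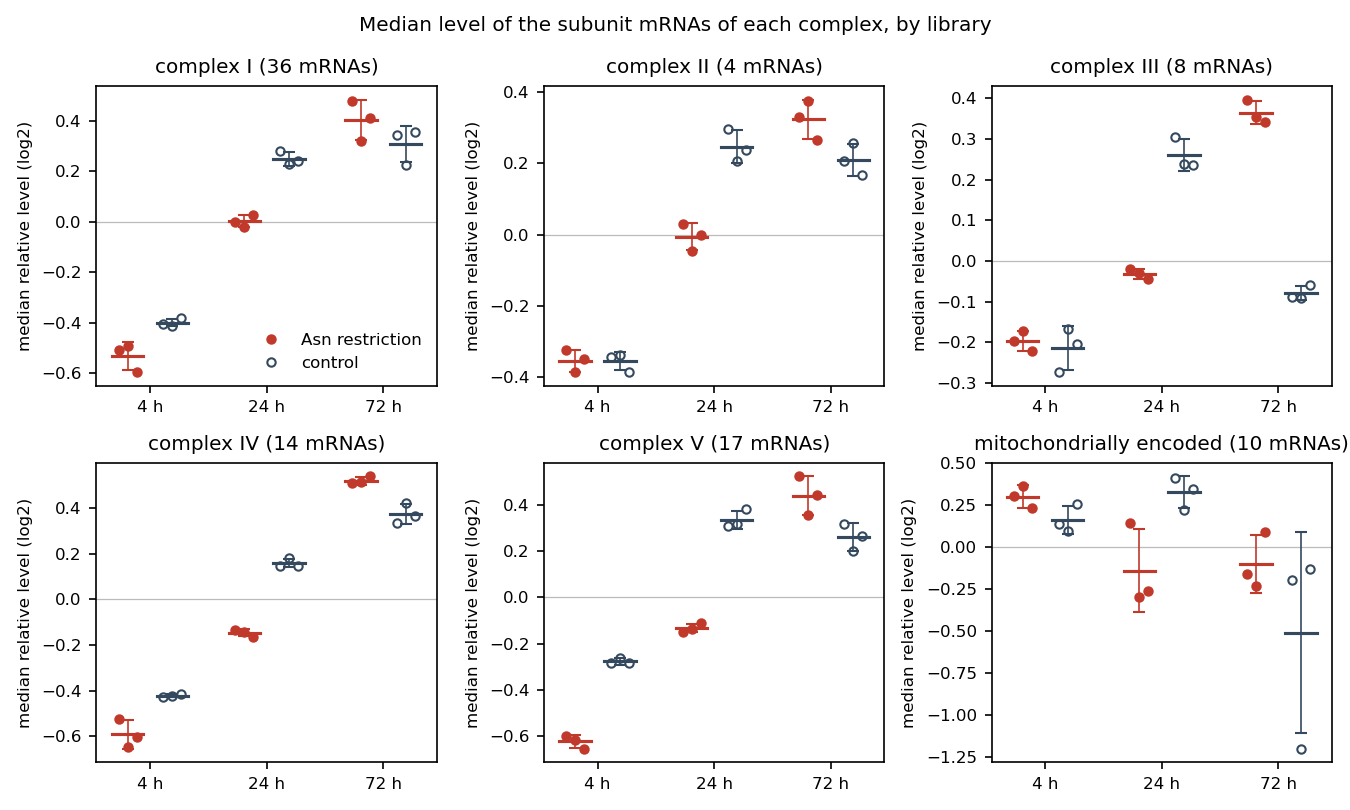
Median level of the tested subunit mRNAs of each complex in each library (log2 CPM of each mRNA relative to its own mean over the 18 libraries), with filled points for Asn restriction, open points for control, lines for the mean and bars for the SD of 3 libraries. With TMM scaling, complexes I to V lay lower in Asn restriction at 24 h with no overlap of libraries, and complex III at 72 h ran from 0.34 to 0.40 in Asn restriction, against -0.09 to -0.06 in control.

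**Figure D2:**
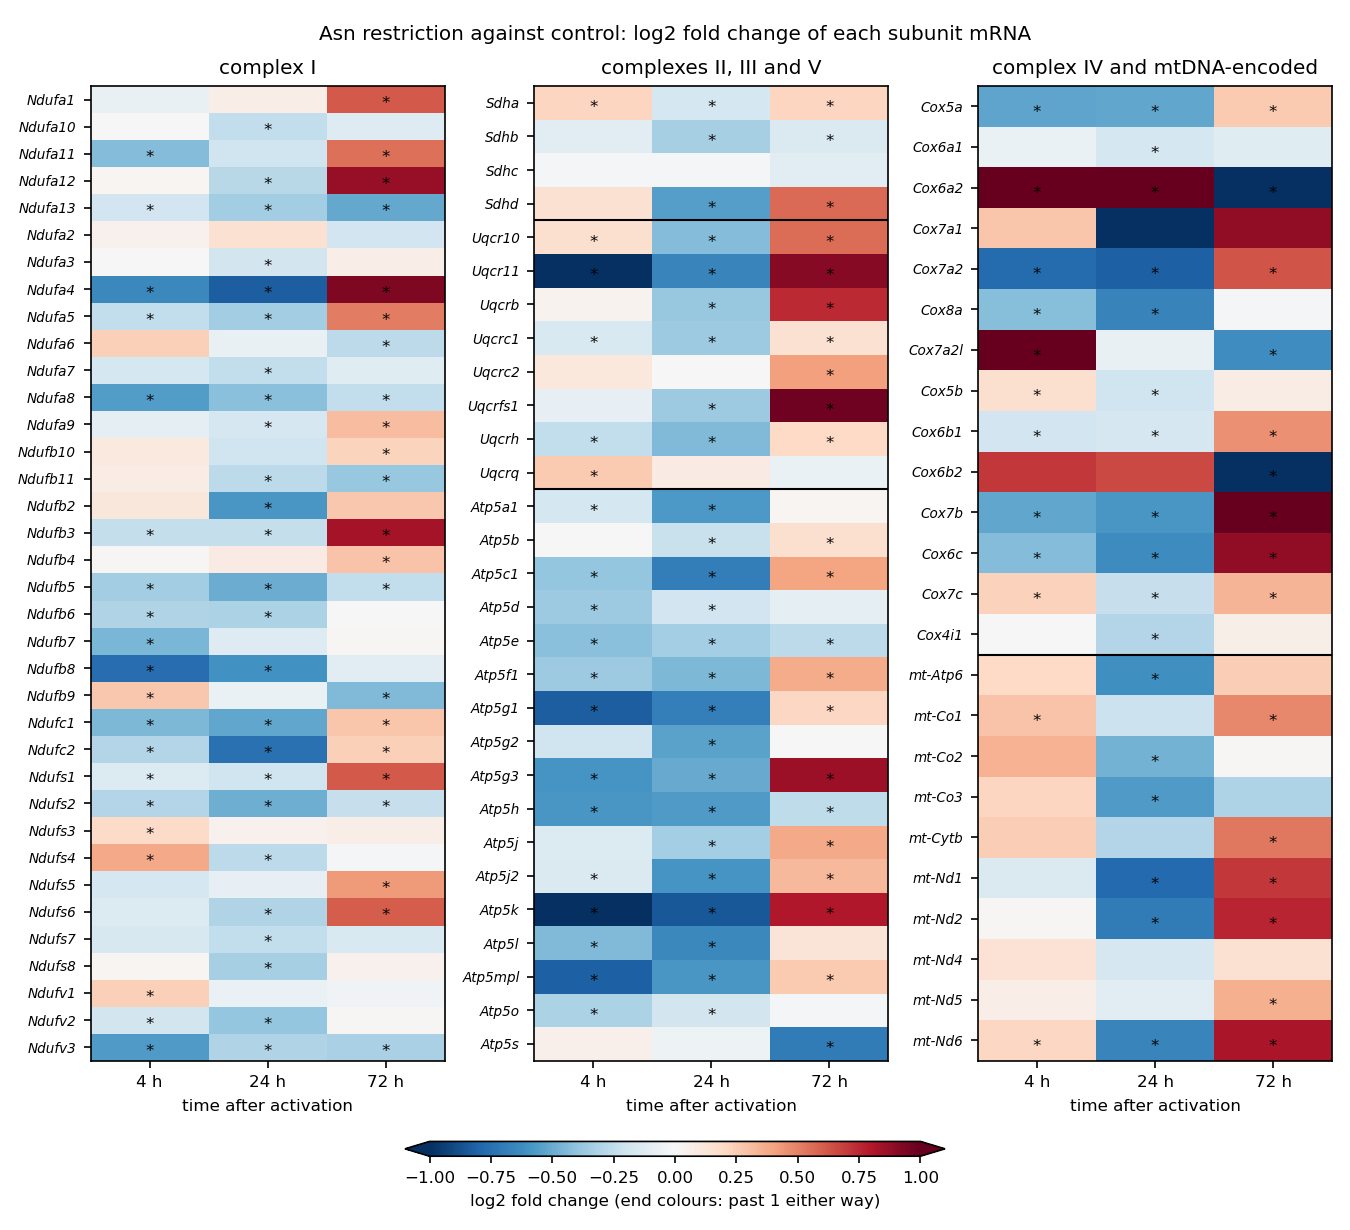
Log2 fold change of Asn restriction against control for the 89 tested members at each time, with red for higher and blue for lower in Asn restriction and a star for an adjusted p of 0.05 or less. At 24 h blue fills most rows, with 60 of 79 nuclear-encoded members called lower, and at 72 h red prevails in complex III, where 7 of 8 members are called higher.

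Of the 36 tested members of complex I, 4 were higher and 16 lower in Asn restriction at 4 h, 25 were lower at 24 h, and 14 were higher and 8 lower at 72 h. Of all genes, 23.6% were higher and 22% lower at 4 h, 27.5% and 28% at 24 h, and 25.4% and 23.8% at 72 h. The share of complex I that was lower at 72 h (22.2%) lay near that of all genes. The median log2 fold change was -0.15 at 4 h, -0.25 at 24 h and 0.03 at 72 h, against 0.02, 0.01 and -0.01 for all genes. Ndufb8, an accessory subunit whose protein is a common marker of assembled complex I, was at 25.1, 22.1 and 25.4 CPM in Asn restriction at 4 h, against 42.0, 37.8 and 42.6 CPM in control. Its libraries did not overlap at 4 h or at 24 h, and its log2 fold change was -0.76 at 4 h (SE 0.08, adjusted p = 3.87e-09) and -0.60 at 24 h. Ndufs4, a subunit whose loss causes Leigh syndrome in humans, went the other way at 4 h, with 58.8, 55.4 and 54.8 CPM in Asn restriction, against 42.9, 42.8 and 44.2 CPM in control. It was the largest rise of the complex at 4 h (log2 fold change 0.38, SE 0.06, adjusted p = 9.45e-06), and at 24 h it was lower (-0.26).

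In the fit of all 18 libraries, Ndufa4 had the largest difference under the complex I name at both later times. Its lowest control level at 72 h was that of replicate 2, and the rank without that library is not given here. Its product belongs to complex IV by present usage. It was at 138, 131 and 123 CPM in Asn restriction at 24 h, against 220, 234 and 237 CPM in control. Its level at 72 h was 138, 140 and 140 CPM in Asn restriction, against 77.6, 52.1 and 87.3 CPM in control. The level in Asn restriction at 72 h was thus near that at 24 h, and it was the control level that differed most between these times. The log2 fold change was -0.82 at 24 h (SE 0.09, adjusted p = 1.75e-09) and 0.93 at 72 h (SE 0.09, adjusted p = 4.82e-10). Ndufa13, also known as GRIM-19, was lower in Asn restriction at all 3 times and fell by 0.51 at 72 h (SE 0.06, adjusted p = 8.49e-09), with 122, 108 and 110.5 CPM in Asn restriction, against 150, 178 and 158 CPM in control. Its exons share 375 bases with Tssk6 on the other strand, which had at most 12 counts in any library.

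Of the 4 complex II members, 1 was higher in Asn restriction at 4 h, 3 were lower at 24 h, and 2 were higher and 1 lower at 72 h. The 25% higher at 4 h and 25% lower at 72 h lay near the shares of all genes, 23.6% and 23.8%. Of all genes, 28% were lower at 24 h and 25.4% higher at 72 h. Sdha and Sdhb form the catalytic head, which oxidizes succinate, and Sdhc and Sdhd anchor it in the membrane. Sdhd was at 106, 109.9 and 107 CPM in Asn restriction at 24 h, against 155, 154 and 164 CPM in control. By 72 h the levels were 158, 155 and 158 CPM in Asn restriction, against 112, 94.0 and 112 CPM in control. Its libraries overlapped at neither time, with a log2 fold change of -0.55 at 24 h (SE 0.06, adjusted p = 1.41e-09) and 0.56 at 72 h (SE 0.06, adjusted p = 1.30e-09). The other anchor, Sdhc, passed the test at no time, with log2 fold changes of -0.02, -0.02 and -0.10 at 4, 24 and 72 h. Sdha was higher at 4 h (0.22), lower at 24 h (-0.18, but 0.057 with ERCC scaling) and higher at 72 h (0.21). Sdhb was lower at 24 h (-0.33) and at 72 h (-0.15, adjusted p = 0.0483, but 0.17 with ERCC scaling), and its libraries overlapped at 72 h.

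Complex III had the largest share of members higher in Asn restriction at 72 h. Of 8 members, 2 were higher and 3 lower in Asn restriction at 4 h, 6 were lower at 24 h and 7 were higher at 72 h, and the median log2 fold change was -0.02, -0.37 and 0.49. Of all genes, 23.6% were higher and 22% lower at 4 h, 28% were lower at 24 h and 25.4% were higher at 72 h. The 25% of complex III higher at 4 h lay near the share of all genes. Uqcrfs1, the Rieske iron-sulfur protein that takes electrons from reduced coenzyme Q, was at 223, 224 and 230 CPM in Asn restriction at 72 h, against 105, 128 and 113 CPM in control. At 24 h it was at 133, 133 and 123 CPM in Asn restriction, against 166, 175 and 159 CPM in control. No library overlapped at either time, and the log2 fold change was 0.97 at 72 h (SE 0.06, adjusted p = 4.85e-15) and -0.36 at 24 h. Uqcr11, a small subunit whose upstream window with ETS letters is printed above, was at 15.4, 21.0 and 17.9 CPM in Asn restriction at 4 h, against 37.8, 44.9 and 40.0 CPM in control. At 72 h it was at 100.4, 82.1 and 91.5 CPM in Asn restriction, against 47.6, 50.5 and 48.0 CPM in control. It was 2.26-fold lower at 4 h (adjusted p = 4.82e-12), 1.58-fold lower at 24 h and 1.88-fold higher at 72 h (adjusted p = 5.20e-11). Uqcrq, the only complex III member not called at 72 h (log2 fold change -0.06), had the largest rise of the complex at 4 h (0.26, SE 0.05).

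Complex IV held both ordinary and tissue-restricted subunits. Of 14 members, 4 were higher and 6 lower in Asn restriction at 4 h, 1 was higher and 10 lower at 24 h, and 6 were higher and 3 lower at 72 h, with medians of -0.03, -0.26 and 0.17. Of all genes, 23.6% were higher and 22% lower at 4 h, 27.5% and 28% at 24 h, and 25.4% and 23.8% at 72 h. The 28.6% of complex IV higher at 4 h and the 21.4% lower at 72 h lay near these shares. Cox7b was at 184, 163 and 166 CPM in Asn restriction at 24 h, against 261, 257 and 249 CPM in control. Its 72 h levels were 195, 194 and 225 CPM in Asn restriction, against 115, 78.5 and 114 CPM in control, a log2 fold change of 0.99 (SE 0.09, adjusted p = 6.61e-11). Cox5a, a matrix-side subunit, was lower at 4 h (-0.53) and 24 h (-0.52) and higher at 72 h (0.26). Cox4i1, the major isoform of a subunit that regulates the enzyme, was lower at 24 h (-0.29), with 0.00 at 4 h and 0.06 at 72 h, which did not pass the test. Cox5b (0.16 at 4 h and -0.20 at 24 h, the second of these 0.037 with ERCC scaling) and Cox8a (-0.43 at 4 h and -0.67 at 24 h) passed the test at 4 h and 24 h, with 0.07 and -0.01 at 72 h.

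Tissue-restricted isoforms of complex IV were at low levels, and Cox6a2 had the largest fold changes of the complex. Differences between isoforms were not tested. Cox6a2 (chromosome 7, 128205435 to 128206387, minus strand) encodes the isoform typical of heart and skeletal muscle. At 4 h it had 34, 16 and 25 counts in Asn restriction, against 1, 0 and 2 counts in control. The ratio of the summed counts, set against library size, was 24.4, with a 95% interval of 8.05 to 121 that covers counting error only (adjusted p of the fit 7.12e-08). At 24 h it had 164, 122 and 168 counts in Asn restriction, against 8, 13 and 4 counts in control, a ratio of 18.1 (12.1 to 28.2, adjusted p = 4.36e-14). At 72 h the order was turned round, with 2.58, 1.90 and 2.65 CPM in Asn restriction, against 22.7, 28.0 and 22.9 CPM in control, and Cox6a2 was 10.3-fold lower (log2 fold change -3.36, SE 0.20, adjusted p = 2.92e-15). Control cells thus held the highest level of all groups at 72 h and the lowest at 4 h. Exons of Cox6a2 share 70 bases with Itgad on the other strand. Itgad had 23 to 31 counts in Asn restriction and 20 to 32 in control at 4 h, and it had no count in any library at 72 h.

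Cox6a1, the counterpart expressed in most tissues, differed little. It was at 226, 200.2 and 214 CPM in Asn restriction at 72 h, against 226, 258 and 213 CPM in control, and its log2 fold changes were -0.07, -0.17 and -0.12 at 4, 24 and 72 h, of which only that at 24 h passed the test (0.058 with ERCC scaling). Cox6a1 outnumbered Cox6a2 in every group, also per kilobase, with 239 CPM per kb for Cox6a1 and 0.626 CPM per kb for Cox6a2 in control at 24 h. Cox6b2, a testis isoform, was at 12 counts or fewer in each library of 4 h and 24 h. It reached 4.35, 6.17 and 4.26 CPM in Asn restriction, against 13.6, 13.0 and 15.8 CPM in control, at 72 h, a log2 fold change of -1.52 (SE 0.29, adjusted p = 4.32e-05). Its counterpart Cox6b1 was lower at 24 h (-0.17, but 0.060 with ERCC scaling) and higher at 72 h (0.46), with 167, 167 and 168 CPM in Asn restriction, against 116, 131 and 119 CPM in control.

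Members of the COX7A family differed among themselves. Cox7a2l, the supercomplex assembly factor, was at 155, 155 and 158 CPM in Asn restriction at 4 h, against 83.7, 72.2 and 75.9 CPM in control. It was 2.01-fold higher at 4 h (adjusted p = 4.64e-16), did not pass the test at 24 h (log2 fold change -0.08) and was 1.54-fold lower at 72 h (adjusted p = 1.23e-11). At 72 h it was at 147, 144 and 147 CPM in Asn restriction, against 224, 222 and 228 CPM in control. Cox7a2, the widely expressed isoform, took the reverse course, with log2 fold changes of -0.77, -0.81 and 0.63 at 4, 24 and 72 h, each past the test. It was at 102, 92.6 and 89.8 CPM in Asn restriction at 24 h, against 172, 162 and 167 CPM in control. Cox7a1, the muscle isoform, had at most 6 counts in any library of 4 h and 24 h. Values at 72 h were 4.01, 3.81 and 3.32 CPM in Asn restriction, against 1.56, 2.67 and 1.86 CPM in control. The groups did not overlap, and the difference did not pass the test (log2 fold change 0.89, SE 0.39, adjusted p = 0.0612).

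**Figure D3:**
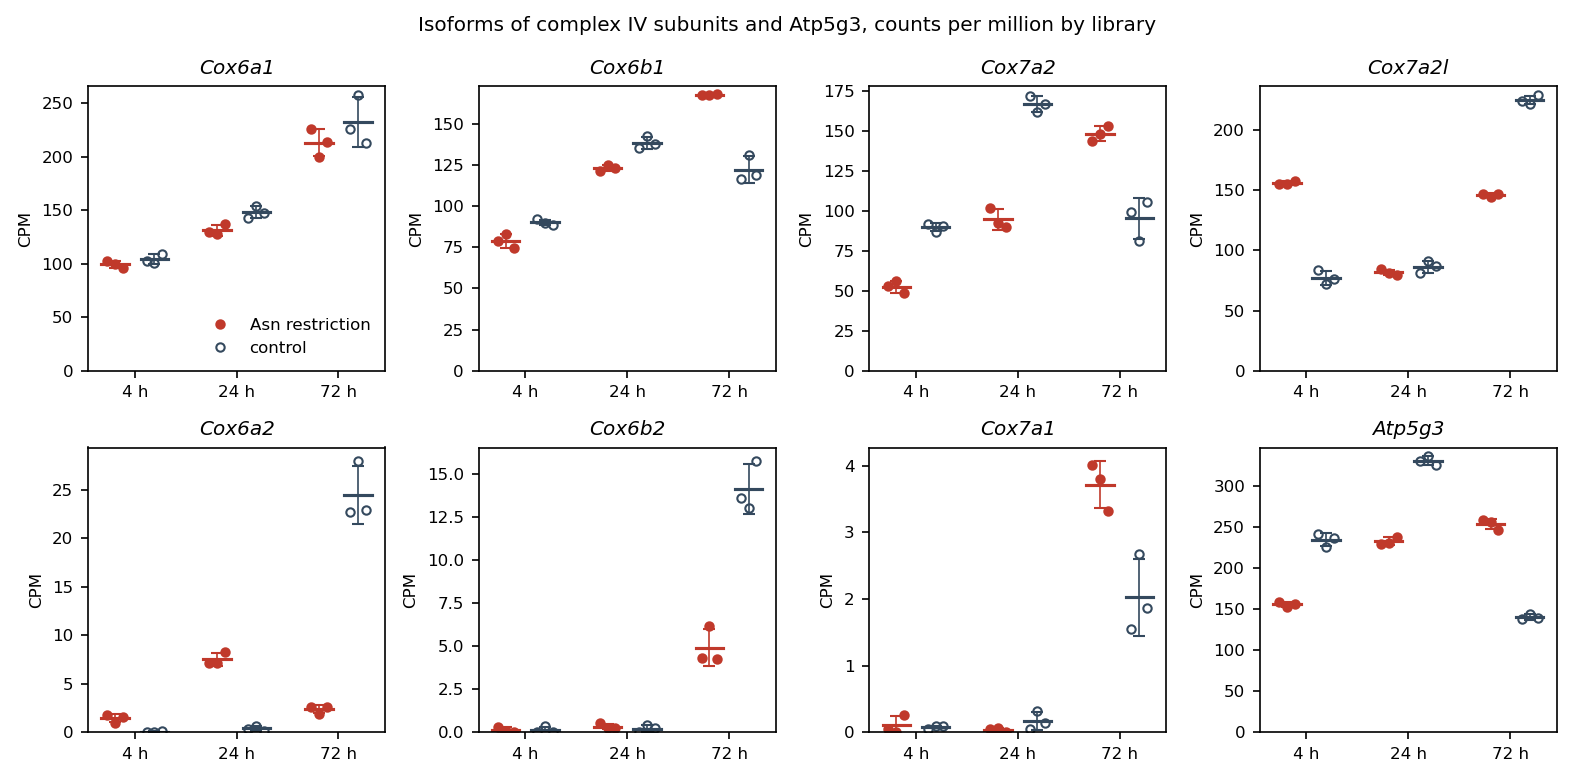
CPM in each library for isoforms of complex IV subunits (upper row widely expressed, with Cox7a2l, and lower row tissue-restricted) and for Atp5g3, with filled points for Asn restriction, open points for control, lines for the mean and bars for the SD of 3 libraries. The scale of each panel starts at 0 and differs between panels: Cox6a2 in control at 72 h lies between 22.7 and 28.0 CPM, while in Asn restriction it peaks at 24 h, between 7.17 and 8.32 CPM.

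Complex V had the largest share of members lower in Asn restriction at 4 h and at 24 h. Of 17 members, 13 were lower in Asn restriction at 4 h and 16 at 24 h, and 9 were higher and 3 lower at 72 h, with medians of -0.36, -0.54 and 0.16. Of all genes, 22% were lower at 4 h and 28% at 24 h, and 25.4% were higher and 23.8% lower at 72 h. Atp5k, a small subunit of the membrane part that takes part in dimer formation, was at 20.8, 20.6 and 21.7 CPM in Asn restriction at 4 h, against 43.3, 48.8 and 46.1 CPM in control. At 72 h it was at 82.1, 65.8 and 70.5 CPM in Asn restriction, against 48.5, 32.7 and 42.6 CPM in control. It was 2.18-fold lower at 4 h (adjusted p = 5.70e-11), 1.80-fold lower at 24 h and 1.74-fold higher at 72 h (adjusted p = 8.84e-09). Atp5s, also called factor B, is a low-level mRNA whose largest difference was at 72 h, with 4.96, 3.92 and 5.03 CPM in Asn restriction, against 8.35, 8.27 and 6.05 CPM in control (log2 fold change -0.70, SE 0.22, adjusted p = 0.0076).

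Atp5g1, Atp5g2 and Atp5g3 encode the same mature protein, the c subunit of the rotor ring, with different import sequences. The Atp5g3 mRNA was at 159, 153 and 156 CPM in Asn restriction at 4 h, against 241, 226 and 236 CPM in control. At 72 h it was at 259, 256 and 246 CPM in Asn restriction, against 138, 145 and 140 CPM in control, and it was 1.81-fold higher (adjusted p = 1.50e-16). The groups did not overlap at any time, and at 24 h it was 1.42-fold lower. Atp5g1 was lower at 4 h (-0.82) and 24 h (-0.69), and at 72 h its difference was 0.21 with libraries that overlapped (adjusted p = 0.00497). Atp5g2 passed the test at 24 h only (-0.54), with 0.00 at 72 h (adjusted p = 0.979). Without control 72 h replicate 2, in which Atp5g2 stood at 118 CPM against 174 and 198 CPM in the other control libraries, that difference was -0.17 (adjusted p = 0.00940). Per kilobase the order in control at 24 h was Atp5g3 (384 CPM per kb), Atp5g2 (187) and Atp5g1 (32.3), and these 3 are related in sequence, so reads shared between them are a limit of the counting.

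Of mitochondrially encoded mRNAs, 2 of 10 tested were higher in Asn restriction at 4 h, 6 were lower at 24 h and 6 were higher at 72 h, with median log2 fold changes of 0.21, -0.52 and 0.42 (at 72 h 0.17 without control 72 h replicate 2). Of all genes, 23.6% were higher at 4 h, 28% were lower at 24 h and 25.4% were higher at 72 h. The 20% of mitochondrial mRNAs higher at 4 h did not exceed the share of all genes. The calls at 4 h, mt-Co1 (0.29, adjusted p = 0.0495) and mt-Nd6 (0.21), were near the threshold, and their number was 4 without control 72 h replicate 2, and 0 without control 4 h replicate 1 or 2 or without Asn restriction 4 h replicate 1 or 3. With ERCC scaling, 1 was lower at 24 h (mt-Nd1) and 7 were higher at 72 h. The mt-Nd1 mRNA, a complex I core subunit (mitochondrial DNA, 2751 to 3707), was at 1089, 776 and 777 CPM in Asn restriction at 24 h, against 1548, 1443 and 1546 CPM in control. Later, at 72 h, it was at 861, 892 and 1027 CPM in Asn restriction, against 643, 341 and 716 CPM in control. It did not overlap between the media at these times and fell by 0.78 at 24 h (SE 0.14, adjusted p = 2.06e-05), and its log2 fold change at 72 h was 0.71. In Asn restriction at 24 h, replicate 1 had the highest level of several mitochondrial mRNAs, and without it 7 of 10 were lower at 24 h.

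The 72 h differences shrank without control 72 h replicate 2, but 5 of the 6 calls remained. The log2 fold change at 72 h was 0.71 for mt-Nd1 with that library and 0.45 without it, and likewise 0.76 and 0.45 for mt-Nd2, 0.53 and 0.26 for mt-Cytb of complex III, and 0.48 and 0.24 for mt-Co1 of complex IV. The call of mt-Nd5 was lost (0.36 with it, 0.10 without it, adjusted p = 0.299). Least affected was mt-Nd6, the single mRNA of the light strand, with 0.81 and 0.76 (adjusted p without it 4.20e-12). It was at 236, 294 and 220 CPM in Asn restriction at 72 h, against 145, 131 and 151 CPM in control. The annotated ends of mt-Nd6 and mt-Nd5 share 14 bases on opposite strands, and whether reads were counted by strand is not given in the sources used here.

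Low counts of several mitochondrial mRNAs limit what can be said of complexes IV and V. The mt-Co2, mt-Atp6, mt-Atp8, mt-Co3, mt-Nd3 and mt-Nd4l mRNAs had median counts of 144.5, 102, 1, 86, 3.5 and 5 per library, against 89141.5 for mt-Co1. A copy of part of the mitochondrial genome lies on chromosome 1 between 24611535 and 24616197, with pseudogenes annotated there (among them Gm10925 and Gm28661, with median counts of 129 and 345), and reads that match both places cannot be placed by sequence alone. In runs of 25 identical bases, these pseudogenes held 98.3% to 99.9% of the bases of mt-Co2, mt-Atp6, mt-Co3, mt-Nd3 and mt-Nd4l, 63.6% of mt-Nd4, 31% of mt-Co1 and 21.1% of mt-Atp8, and no such run of mt-Nd1, mt-Nd2, mt-Nd5, mt-Nd6 or mt-Cytb. Values of the mRNAs that share such runs are therefore uncertain, and the part of the copy in the low counts was not tested. Without mt-Co2, mt-Atp6 and mt-Co3, 3 of the other 7 mRNAs were lower at 24 h (mt-Nd1, mt-Nd2 and mt-Nd6).

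**Figure D4:**
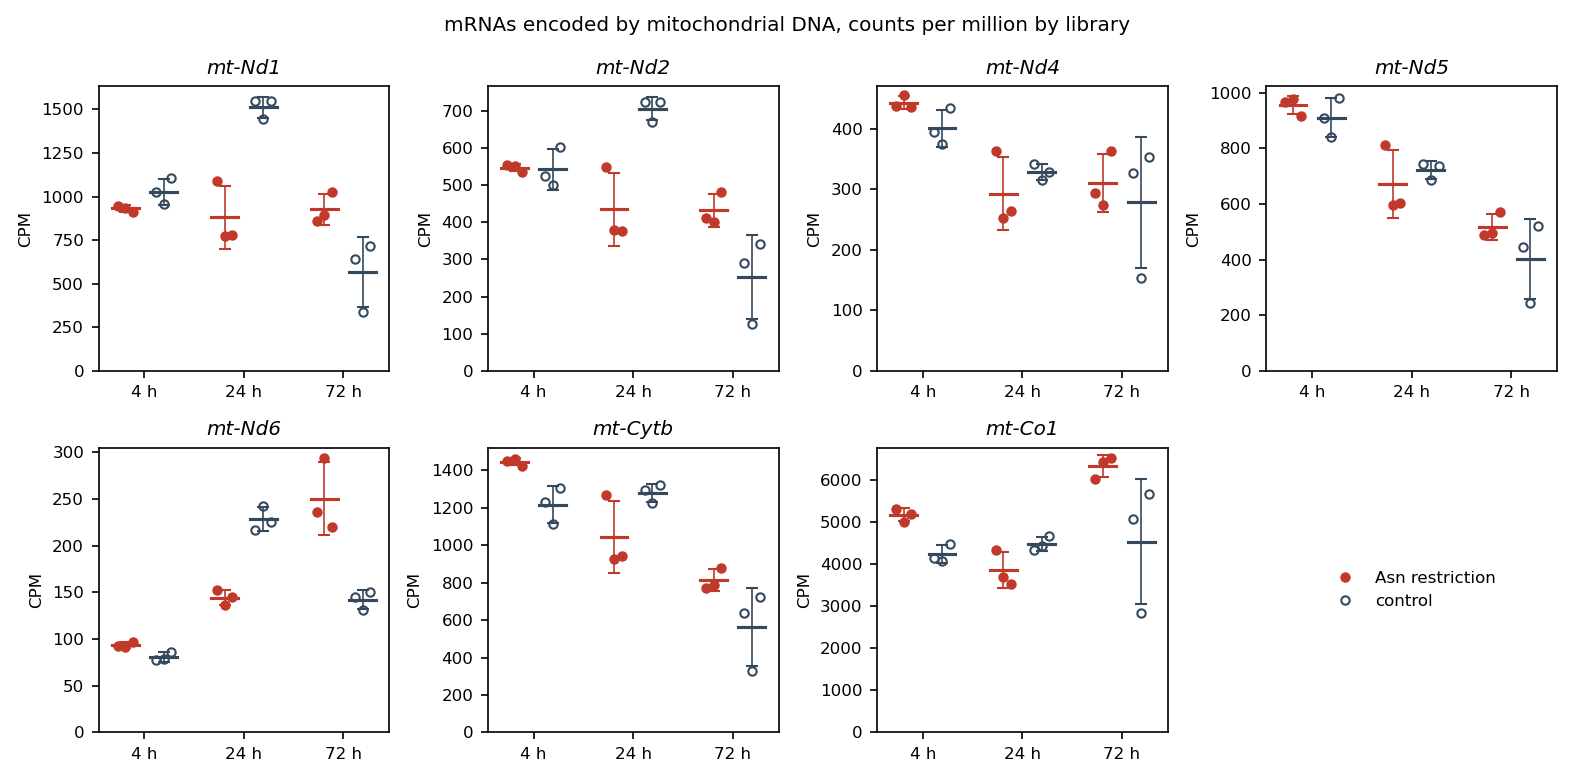
CPM in each library for the 7 mRNAs of mitochondrial DNA with high counts (of these mt-Co1 and mt-Nd4 lie in part within the stretch copied on chromosome 1), with filled points for Asn restriction, open points for control, lines for the mean and bars for the SD of 3 libraries. At 72 h, control replicate 2 lies lowest in every panel (341 CPM for mt-Nd1, against 643 and 716 CPM in the other control libraries), and the control libraries of mt-Nd6 span 131 to 151 CPM.

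Changes of the difference between the media were tested directly. From 4 h to 24 h the log2 fold change of Asn restriction against control became more positive in 2 of 79 nuclear-encoded members and more negative in 25, against 18.5% and 17.8% of all genes, and in 8 of 10 mitochondrial mRNAs it became more negative (4 without Asn restriction 24 h replicate 2 or 3, and 5 without Asn restriction 4 h replicate 2). For the mitochondrial mRNAs that count was 1 without TMM factors and 4 with the DESeq2 Wald test, and none of the calls held with ERCC scaling. From 24 h to 72 h it became more positive in 53 and more negative in 5, against 29.5% and 27.7%, and it became more positive in 7 mitochondrial mRNAs (5 without control 72 h replicate 2). The median of this change in the 79 members was 0.48 on the log2 scale, against -0.04 for all genes, and by complex it was 0.29 for complex I, 0.29 for II, 0.81 for III, 0.60 for IV and 0.72 for V. The 5 that became more negative were Ndufa2, Ndufb9, Cox6a2, Cox6b2 and Cox7a2l. In control at 72 h, Ndufa2 was at 184 CPM in replicate 2, against 128 and 115 CPM in the other libraries. Ndufb9 was at 100.5 CPM in replicate 2, against 75.5 and 68.6 CPM. The number of members that became more negative was 5 without that library and 3 with the DESeq2 Wald test, and which members these were is not given here. Of the 79 members, 32 (40.5%) were called lower at 24 h and higher at 72 h, against 13.6% of all genes tested. A further 9 (11.4%) were lower at both times, against 4.59% of all genes. Cox6a2 alone (1.27%) was higher at 24 h and lower at 72 h, against 10.3% of all genes. Without TMM factors, the split from 4 h to 24 h was 18 more positive and 9 more negative, against 4952 and 1425 of all 14871 genes. With ERCC scaling it was 1 and 1, against 2399 and 375 of all genes. From 24 h to 72 h it was 35 more positive and 2 more negative with ERCC scaling, against 2980 and 2119 of all genes.

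Over time within each medium, most members rose in the earlier interval. Between 4 h and 24 h, 65 of 79 nuclear-encoded members rose and 3 fell in Asn restriction, against 34.9% and 30.9% of all genes. In control, 71 rose in that interval and the other 8 did not pass the test, against 34.9% of all genes that rose and 34.7% that fell. The median rise was 0.45 on the log2 scale in Asn restriction and 0.59 in control. Of 10 mitochondrial mRNAs, 1 rose and 7 fell in Asn restriction. In control 3 rose and 1 fell, and the 30% that rose lay near the 34.9% of all genes. All 8 of these falls were lost without TMM factors and with ERCC scaling, where 1 and 2 rose in Asn restriction.

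The media parted between 24 h and 72 h. In Asn restriction, 64 of 79 nuclear-encoded members rose further and 3 fell, against 35.3% and 35.5% of all genes, with a median of 0.53. In control, 29 rose and 31 fell, against 35.7% and 35.1%, with a median of 0.01. In this interval 23 members rose in Asn restriction and fell in control, against 7.3% of all genes tested, 26 rose in both, against 21.8%, and 15 rose in Asn restriction without passing the test in control, against 6.13%. With ERCC scaling, 13 members rose and 22 fell in control, against 3751 and 4365 of all 14871 genes. In Asn restriction 46 members rose and 1 fell on that scale, against 3793 and 3692 of all genes. Complex III stood at the control end, with 5 of 8 members that fell in control (median -0.46), while 5 rose in Asn restriction (median 0.45). Ndufa4 fell by 1.66 in control, with control 72 h replicate 2 included, and had a change of 0.09 in Asn restriction that did not pass the test. Ndufv3, an accessory subunit chosen here after its values were seen, rose alike in both media, by 1.76 in Asn restriction and 1.78 in control, and Cox7a2l rose by 0.84 in Asn restriction and 1.38 in control.

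Calls of mitochondrial mRNAs between 24 h and 72 h were mixed. In Asn restriction 3 of 10 rose and 2 fell, against 35.3% and 35.5% of all genes, which these counts did not exceed. In control 6 fell, against 35.1% of all genes. Both falls in Asn restriction were lost without 24 h replicate 1 or without 72 h replicate 1 or 2 of that medium. In control, mt-Co1 had a log2 fold change of 0.02 (not past the test), while mt-Nd1 fell by 1.41, mt-Nd2 by 1.47 and mt-Cytb by 1.18. Without control 72 h replicate 2 these were 0.26 for mt-Co1, which then passed the test (adjusted p = 1.97e-05), -1.16 for mt-Nd1, -1.16 for mt-Nd2 and -0.91 for mt-Cytb. In Asn restriction, mt-Co1 rose by 0.72 and mt-Nd6 by 0.79, while mt-Nd1 (0.07) and mt-Nd2 (-0.01) did not pass the test. Whether the courses of mt-Co1 and mt-Nd1 differ was not tested.

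**Figure D5:**
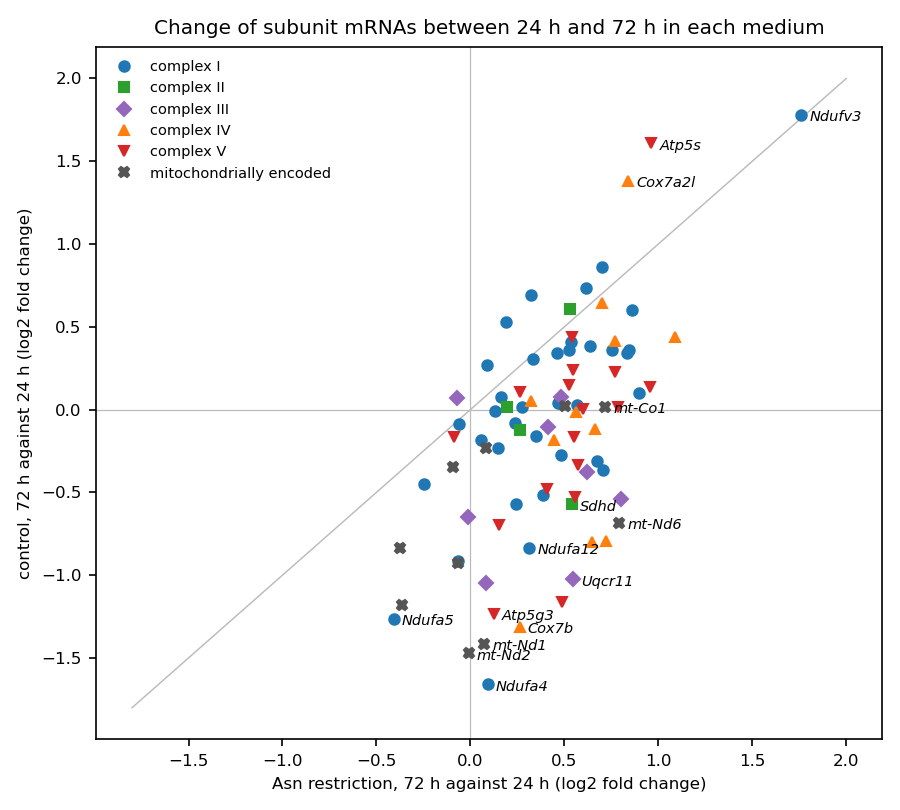
Log2 fold change between 24 h and 72 h in Asn restriction (horizontal) and in control (vertical) for the tested members, coloured by complex, with the grey diagonal where both media change alike; Cox6a2, Cox6b2 and Cox7a1 lie outside the shown range and are left out. Most points lie to the right of the vertical zero line, where 64 of 79 nuclear-encoded members are called as rising in Asn restriction, and they spread above and below the horizontal zero line, with 29 called as rising and 31 as falling in control.

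The levels were unequal within each complex. Per kilobase of the deposited gene length in control at 24 h, nuclear-encoded members of complex V ran between 855 CPM per kb for Atp5b, the catalytic beta subunit, and 1.54 for Atp5s, with Atp5a1 at 406. In complex IV, Cox4i1 (448 CPM per kb) and Cox7c (368) led. Complex III was the most even, from 270 CPM per kb for Uqcr10 down to 99.8 for Uqcrc1, a core protein. In complex I, Ndufa4 (187) led, Ndufb2 (2.63) was the lowest tested member, and the filtered Ndufa4l2, a hypoxia-induced relative of Ndufa4, stood at 0.0164. The mitochondrially encoded mt-Co1 stood at 2892 CPM per kb and mt-Nd1 at 1580, above each nuclear-encoded member. The summed level of the nuclear-encoded complex V members was 3841 ± 27.4 CPM in Asn restriction at 24 h and 5133 ± 21.4 CPM in control (mean ± SD over 3 libraries in each), and at 72 h it was 5549 ± 87.4 CPM in Asn restriction and 5020 ± 170 CPM in control. The sum over the 10 tested mitochondrial mRNAs at 72 h was 9586 ± 482 CPM in Asn restriction and 6744 ± 2266 CPM in control, with the wide spread of control set by replicate 2.

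Assembly factors, which build the complexes without staying in them, were taken from lists. For these lists and those below, the shares of all genes are 23.6% higher and 22% lower at 4 h. They are 27.5% and 28% at 24 h and 25.4% and 23.8% at 72 h. Several counts of the lists lie near these shares and are given as description only. Of 16 complex I assembly factors, 5 were lower in Asn restriction at 4 h, 2 were higher and 12 lower at 24 h (median -0.34), and 8 were higher and 2 lower at 72 h (median 0.29). Largest among those called were Ndufaf7 at 4 h (-0.89), Ndufaf2 at 24 h (-0.77, with Ndufaf3 as the largest rise, 0.63) and Ndufaf1 at 72 h (0.67, with Ndufaf5 as the largest fall, -0.31). Of 4 complex II factors, 2 were higher and 1 lower at 4 h, 2 were higher at 24 h and 2 were lower at 72 h. Sdhaf1 was higher at 4 h (0.38) and lower at 72 h (-0.39), Sdhaf4 was lower at 4 h (-0.95) and Sdhaf3 was higher at 24 h (0.55). Of 6 complex III factors, 1 was higher and 2 lower at 72 h, namely Uqcc2 (0.42) and, as the largest fall, Ttc19 (-0.71). At 24 h Uqcc3 was higher (0.44) and Uqcc2 lower (-0.21), and at 4 h Ttc19 was higher (0.26) while Bcs1l, which inserts the Rieske protein, had the largest fall (-0.62).

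Of 21 complex IV assembly factors, 4 were higher and 7 lower at 4 h, 2 higher and 9 lower at 24 h (median -0.26), and 5 higher and 3 lower at 72 h (median 0.07). Cox20, a chaperone of COX2, had the largest rise at 4 h (1.20, SE 0.17), with 11.8 ± 1.1 CPM in Asn restriction and 5.06 ± 0.78 CPM in control (mean ± SD over 3 libraries in each), and Coa6 had the largest fall at 4 h (-0.60) and at 24 h (-0.53), when Cox18 had the largest rise (0.58). At 72 h Coa7 (1.14, SE 0.10) and Sco1, a copper chaperone (-0.70, SE 0.08), were the extremes. Of 4 complex V factors, 2 were lower at 4 h, with Atpaf1 as the largest fall (-0.51), and 3 were lower at 24 h and 1 higher at 72 h. Tmem70 was at 39.3 ± 1.2 CPM in Asn restriction at 24 h and 66.2 ± 7.0 CPM in control, and its log2 fold change was -0.75 at 24 h and 0.45 at 72 h.

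Electron carriers outside the name rule and coenzyme Q enzymes gave mixed counts. Of 7 carriers and further chain components, 3 were higher and 2 lower at 4 h, 1 higher and 5 lower at 24 h, and 4 higher and 2 lower at 72 h. Gpd2, the mitochondrial glycerol phosphate dehydrogenase, had the largest rise at 4 h (0.82), with 174 ± 5.2 CPM in Asn restriction and 99.0 ± 1.8 CPM in control. Dhodh, which feeds electrons from pyrimidine synthesis into coenzyme Q, had the largest fall at 4 h (-1.16) and 24 h (-0.55), and Etfdh had the largest rise at 24 h (0.21). Cycs, cytochrome c itself, had the largest rise at 72 h (0.83, SE 0.06), with 220 ± 3.1 CPM in Asn restriction and 124 ± 8.5 CPM in control, and Sqor had the largest fall (-1.50). Of 13 coenzyme Q genes, 4 were higher and 2 lower at 4 h, 3 lower at 24 h, and 5 higher and 3 lower at 72 h. Coq7, a hydroxylase of the pathway, was lower at 4 h (-0.48) and 24 h (-0.89), and at 72 h it was at 29.3 ± 1.7 CPM in Asn restriction and 8.26 ± 1.2 CPM in control (1.82, SE 0.15, adjusted p = 1.35e-11). Coq8a ran the other way, higher at 4 h (1.40) and lower at 72 h (-1.27).

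Of 19 genes of mitochondrial DNA upkeep and transcription, 5 were higher and 4 lower at 4 h, 1 was higher and 9 lower at 24 h (median -0.18), and 10 were higher and 3 lower at 72 h (median 0.31). The counts at 4 h lie near the shares of all genes, 23.6% higher and 22% lower. Slirp, which protects mitochondrial mRNAs together with LRPPRC, had the largest rise at 72 h (1.16, SE 0.12), with 68.2 ± 1.5 CPM in Asn restriction and 30.1 ± 8.8 CPM in control. Primpol was higher at 4 h (0.74) and lower at 72 h (-0.85), Mgme1 was lower at 4 h (-0.57) and 24 h (-0.75), and Mterf1a was higher at 24 h (0.43). Of 11 nuclear regulators, 8 were higher and 2 lower at 4 h, 5 higher and 3 lower at 24 h, and 5 higher and 2 lower at 72 h. Ppargc1b, a coactivator of respiratory genes, was the largest fall at 4 h, with 4.58 ± 0.53 CPM in Asn restriction and 16.7 ± 1.5 CPM in control (-1.85, SE 0.16), and at 24 h (-0.52). Ppard was higher at 4 h (0.65) and lower at 72 h (-0.41), Sp1 had the largest rise at 24 h (0.56) and Myc had the largest rise at 72 h (0.84, SE 0.04), with 353 ± 6.8 CPM in Asn restriction and 196.5 ± 3.43 CPM in control.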

How the data were processed

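RNA-seq libraries of 18 samples in 6 groups were analysed from the count table that the authors deposited, which holds whole-number counts per gene. The table also holds, from the authors, normalized values (a signal scale) per library and their group means, gene lengths in bases under a column of another unit, and their own log2 fold changes and adjusted p-values. Of these only the lengths were used, for CPM per kb, and the comparison columns were not used. The tools listed in the submitters' processing notes are RSEM 1.31, STAR 2.7 and Trim Galore 0.60, with mm10 and hg19 as builds, and the steps and parameters are not given in the sources used here.

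Members and lists were chosen with earlier results of these data known. 63 ERCC rows were kept out of library sizes. Counts were tested with edgeR 4.0.16 in R 4.3.3 (filterByExpr, TMM factors, quasi-likelihood test). This was 1 fit of 18 libraries with 6 group means and 12 residual degrees of freedom. Benjamini-Hochberg adjustment was over 14871 genes, with a threshold of 0.05. The tests were run on simulated data with the same spread for every gene and few changed genes. Such data cannot show how the calls depend on scaling or on a spread that differs between genes. The SE is the log2 fold change divided by the square root of F. CPM use TMM-scaled totals. Comparisons were the media at each time, the times within each medium and the change of the media difference between times. The named members were, in each complex and comparison of media, the called members with the largest rise and fall, all of complex II and all isoform families. For other lists the rule was the largest rise and fall of each, and genes that did not pass the test were passed over, a restriction the rule did not hold. Members named outside this rule were chosen after their values were seen. Gene positions are from GENCODE M21 (GRCm38), where 18508 of 18522 gene IDs matched without their version numbers.

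Alternatives were DESeq2 1.42.0 (size factors, and its Wald test), no TMM factors, ERCC scaling, other count filters, fewer libraries in the fit, a replicate block and each library left out in turn. Replicate numbers are not said to pair samples and were not used as pairs in the main fit. The correlations of same-numbered deviations lay between -0.0515 and 0.0101. With 3 libraries per group, these cannot show whether same-numbered libraries shared an animal or culture.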

Additional observations from a re-analysis of the deposited data

Results flagged for a closer look

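Differences between the media that changed between times, by a test of the change itself in edgeR (log2 fold change at the later time minus that at the earlier time, Asn restriction over control, adjusted over all genes), are listed with their values. Libraries per group were 3.

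Between 4 h and 24 h, the change was -0.64 for Ndufs4, -0.39 for Sdha, -0.22 for Sdhb and -0.70 for Sdhd. It was 0.51 for Uqcr11, whose lower level in Asn restriction became less marked, and -0.28 for Uqcrfs1. In complex IV it was -0.30 for Cox4i1, -0.36 for Cox5b, -1.09 for Cox7a2l and -0.24 for Cox8a. For mitochondrially encoded mRNAs it was -0.51 for mt-Co1, -0.64 for mt-Nd1 and -0.87 for mt-Nd6.

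Between 24 h and 72 h, the change was 0.24 for Ndufs4, 0.50 for Ndufb8 and 1.75 for Ndufa4. In complexes II and III it was 0.39 for Sdha, 1.11 for Sdhd, 1.57 for Uqcr11 and 1.34 for Uqcrfs1. In complex IV it was 0.35 for Cox4i1, 0.78 for Cox5a, 0.27 for Cox5b, 0.63 for Cox6b1, 1.45 for Cox7a2, 1.57 for Cox7b and 0.65 for Cox8a. It was -7.51 for Cox6a2, -2.18 for Cox6b2, -0.54 for Cox7a2l and 3.0 for Cox7a1. Cox6b2 and Cox7a1 were near 0 counts at 24 h, so their values depend on the prior count of the fit. In complex V it was 1.65 for Atp5k, 0.89 for Atp5g1, 0.54 for Atp5g2 and 1.36 for Atp5g3. It was 0.70 for mt-Co1, 1.49 for mt-Nd1 and 1.47 for mt-Nd6. Without control 72 h replicate 2 these last 3 were 0.45, 1.23 and 1.42.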

How the results depend on the processing

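Scaling moved the counts most, and counts of all genes without TMM factors and with ERCC scaling are given above for the media at each time. Without TMM factors, nuclear-encoded members numbered 4 higher at 4 h, 4 higher at 24 h and 24 lower at 72 h, 18 more positive and 9 more negative from 4 h to 24 h and 11 more negative from 24 h to 72 h, with 1 that fell in Asn restriction from 4 h to 24 h and 7 from 24 h to 72 h. Mitochondrial mRNAs were then 0 higher at 4 h, 1 more negative from 4 h to 24 h, and 0 fell from 4 h to 24 h in either medium. With ERCC scaling, nuclear-encoded members were 2 higher and 22 lower at 4 h, 4 lower at 24 h, 2 lower at 72 h, 1 more positive and 1 more negative from 4 h to 24 h, and 35 more positive and 2 more negative from 24 h to 72 h. Then 13 rose in control from 24 h to 72 h, against 3751 of all 14871 genes, and 0 and 1 fell in Asn restriction in the earlier and later interval. Mitochondrial mRNAs were 0 higher at 4 h, 1 lower at 24 h and 0 more negative from 4 h to 24 h, with 0 that fell in control and 2 that rose and 0 that fell in Asn restriction from 4 h to 24 h, and 0 that fell in it from 24 h to 72 h. ERCC scaling turned the 24 h difference of Sdha (0.057), Cox5b (0.037), Cox6a1 (0.058) and Cox6b1 (0.060) and the 72 h difference of Sdhb (0.17), and with single libraries left out Atp5g2 at 72 h ranged from -0.17 (without control 72 h replicate 2) to 0.16. With a ratio of at least 5 to 4, chosen after seeing the data, 3 were higher and 24 lower at 4 h, 38 lower at 24 h, 25 higher and 7 lower at 72 h, and 15 more negative from 4 h to 24 h. With DESeq2's Wald test, 1 mitochondrial mRNA was higher at 4 h, 4 were more negative from 4 h to 24 h, 0 fell in control from 4 h to 24 h and 0 in Asn restriction from 24 h to 72 h, and 3 nuclear-encoded members were more negative from 24 h to 72 h. With only the compared libraries in the fit, 4 mitochondrial mRNAs were higher and 1 lower at 4 h, 5 rose and 2 fell in control from 4 h to 24 h, 2 nuclear-encoded members were higher at 24 h and 4 more positive from 4 h to 24 h. With mitochondrial counts left out of library sizes, 1 mitochondrial mRNA was higher at 4 h, and with a filter of 10 counts 0 nuclear-encoded members were higher at 24 h. With the 3 tested mRNAs that lie almost wholly within the nuclear copy (mt-Co2, mt-Atp6 and mt-Co3) left out, chosen after seeing the data, 3 mitochondrial mRNAs were lower at 24 h, 5 more negative from 4 h to 24 h and 4 fell in Asn restriction. With single libraries left out, mitochondrial counts ranged from 0 to 4 higher at 4 h, 4 to 9 more negative from 4 h to 24 h, 0 to 2 that fell in control from 4 h to 24 h, 0 to 1 that rose in control and 0 to 2 that fell in Asn restriction from 24 h to 72 h, and nuclear-encoded counts from 1 to 2 higher at 24 h and 2 to 4 more positive from 4 h to 24 h. The replicate block moved 0 of 36 counts by over 1.5 times, with 13 nuclear-encoded members higher at 4 h. Of 2498 values of named members under all alternatives, 2363 kept their side of the threshold without a counted change of direction. A change of direction was counted only where 1 of the 2 fits passed the test. Of the 2363, 1609 came from fits with a single library left out. With ERCC scaling, 61 values were kept, 26 lost their call, 1 gained a call and 5 changed direction. Except where stated, the cause was not tested.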
